A study of Xenopus laevis with 20 samples.

Results

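Smad1-only peaks are the sites of the whole-embryo Smad1 list that shared no base with any peak of the β-catenin list from gut explants, the p300 list from gut explants or the p300 list from whole embryos. They were chosen by measured values, the positions of the peaks called in the 4 lists, so that the overlaps below describe the choice and are not findings. There were 1788 of them among the 7976 Smad1 peaks, or 22.4% (exact 95% interval 21.5 to 23.3). The measurements were chromatin immunoprecipitation followed by sequencing (ChIP-seq) in wild-type Xenopus laevis embryos at Nieuwkoop-Faber stage 20. Smad1 and p300 were each profiled in 1 library of whole embryos, for which the labels name no treatment. In explants, 4 libraries were made for β-catenin and 4 for p300: foregut with DMSO vehicle, foregut with 60 μM BIO, hindgut with DMSO and hindgut with BIO, the agents having been given from stage 12 to stage 20. BIO inhibits GSK3, the kinase that marks β-catenin for destruction, and so activates Wnt signalling. Each ChIP library had an input library of its own, which gave 20 samples in all, with 1 library in each group.

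Smad1 is one of the receptor-activated Smads of bone morphogenetic protein (BMP) signalling. Ligand-bound BMP receptors phosphorylate it, it joins Smad4, and the complex enters the nucleus and binds DNA, usually beside other transcription factors. In the frog embryo BMP signalling patterns the dorsal-ventral axis and also acts in the early gut. β-catenin carries the canonical Wnt signal into the nucleus, where TCF/LEF factors bring it to DNA. p300 is a histone acetyltransferase that is often used as a mark of active enhancers. A Smad1-only peak is therefore a called Smad1 site with no called β-catenin or p300 site on it. Below, partner is a short name for β-catenin and p300, and a relation to Smad1 was not tested.

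The name describes calls and not the absence of a protein. The Smad1 antibody is labelled Smad, and the peak names call the target phosphorylated Smad1 (pSmad1). The list came from whole embryos, in which every tissue contributes, whereas the β-catenin and the longer p300 list came from gut tissue alone and pooled foregut with hindgut and DMSO with BIO. The other lists were also thresholded. The β-catenin list ended at a −log10 p of 78.6 and held 8.34% of the number that its highest peak name reached. The explant p300 list ended at 23.1 and held 15.7%. The whole-embryo p300 list was not cut in this way, since it ended at 4.63 and held 100%. A weaker β-catenin or p300 signal at a Smad1-only site would not appear. Each list was a single call set, so no replicate error can be given, and peaks of 1 list are not replicates. The values are therefore descriptions with no test, and the intervals cover counting error only. No gene or sequence is given for the sites, because the build behind these coordinates is not given and no genome was used here.

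The 3 other lists removed unequal numbers of Smad1 peaks. With the β-catenin list alone, 2941 Smad1 peaks were clear, with the explant p300 list alone 3272, and with the shorter whole-embryo p300 list alone 5882. The median peak widths of these lists also differed, at 516, 411 and 118 bp in the same order. What part width had in these numbers was not tested. The β-catenin and explant p300 lists together left 1944, and the whole-embryo p300 list took away the last 156. The number also followed how far down the other lists were read. The highest-scoring 25% of each list left 4730 Smad1 peaks clear, 50% left 3220, 75% left 2342, and the full lists left the 1788. The lowest-scoring 25% of the other lists thus still removed 554 Smad1 peaks.

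Few sites lay close to the line that the rule draws. Only 8 Smad1-only peaks had a peak of another list within 100 bp, and 29 had one within 200 bp. The nearest, on chromosome 6S from 94269755 to 94270021 (6.71-fold Smad1 enrichment), was 26 bp from a whole-embryo p300 peak. The next were 52 bp from a β-catenin peak, on chromosome 2S from 78199104 to 78199409 (7.46-fold), and 64 bp from an explant p300 peak, on chromosome 2S from 2376405 to 2376724 (6.56-fold). The site on chromosome 2S at 78199104 also had explant p300 at 384 bp and whole-embryo p300 at 131 bp, so that it lay beside all 3 partners without touching one. On the other side of the line, 72 Smad1 peaks shared 100 bases or fewer with another list. Only 2 Smad1 peaks shared 50 bases or fewer. They lay on chromosome 2S from 150652134 to 150652436 (1 base, 7.55-fold) and on chromosome 4L from 17830546 to 17830895 (42 bases, 10.0157-fold), and each met a whole-embryo p300 peak. Another Smad1 peak, on chromosome 3L from 74054044 to 74054298 (7.21-fold), shared 60 bases with one.

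Smad1-only peaks were modest Smad1 sites. Fold enrichment is the authors' ratio of ChIP pileup to local background at the peak, and the score, 10 times the −log10 p, ranks the list. The median fold of the Smad1-only peaks was 7.59 (order-statistic 95% interval 7.51 to 7.67, quartiles 6.91 and 8.69), against 8.68 (interval 8.59 to 8.74) for the 6188 other Smad1 peaks. Their median score was 182 against 239, and their median width was 352 bp (interval 346 to 358) against 394 bp (interval 390 to 398). Width comes from the same start and end positions that the rule used, so the difference in width is not separate from the choice. In a random pair, the probability that the Smad1-only peak scored higher was 0.298. It had the higher fold with 0.357 and the greater width with 0.401, where 0.5 would mean that neither tended to be higher. A fold of 10 or more was reached by 228 Smad1-only peaks, or 12.8%, where the background over all Smad1 peaks was 30.4%. The distributions overlapped widely, since the folds of the Smad1-only peaks ran from 4.59 to 46.4 and those of the others from 2.62 to 46.6. Summits sat near the middle of the peak in both, at a median of 49.6% of the width.

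**Figure D1:**
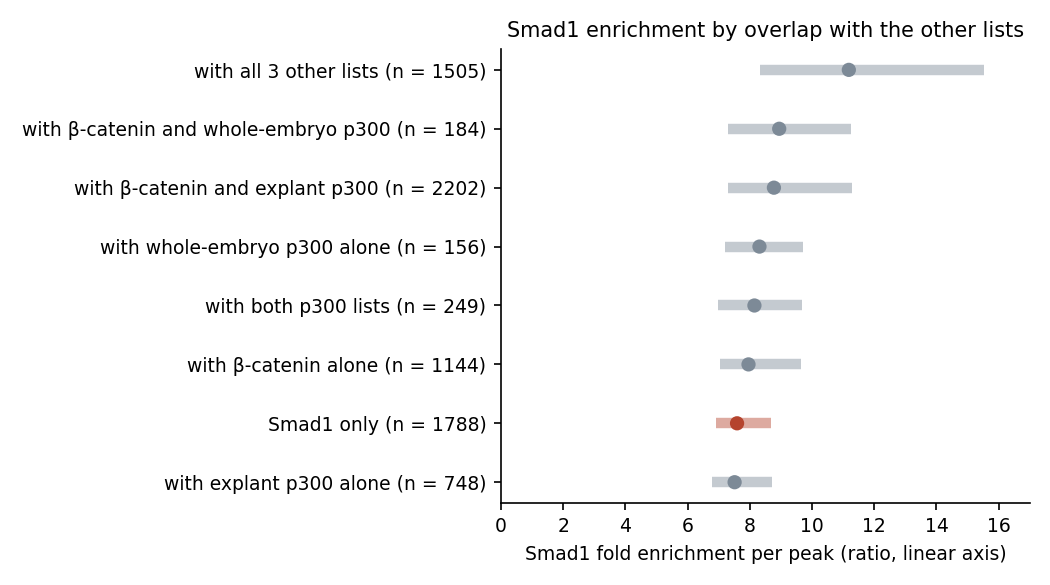
Smad1 fold enrichment (linear axis) of the Smad1 peaks in each class of overlap with the other lists; points are medians, bars run from the lower to the upper quartile, and n is the number of peaks. The Smad1-only peaks, in red, have a median of 7.59, next to the 7.51 of peaks shared with explant p300 alone and below the 11.2 of peaks in all 3 other lists.

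The Smad1-only peaks shared the low end of the Smad1 signal with another class. The 748 Smad1 peaks that overlapped explant p300 alone had a median fold of 7.51 (interval 7.46 to 7.64), a median score of 183 and a median width of 331 bp. Against these, a Smad1-only peak had the higher fold with a probability of 0.516 and the higher score with 0.484, both close to 0.5. The fold quartiles were also close, at 6.91 and 8.69 for Smad1-only peaks and 6.79 and 8.70 for this class. The 1144 peaks with β-catenin alone stood somewhat higher, with a median fold of 7.96 (interval 7.87 to 8.15) and a median score of 201, and here the probability that the Smad1-only peak scored higher was 0.397. The 156 peaks with whole-embryo p300 alone had a median fold of 8.31, a median score of 217.5 and a median width of 423 bp. The contrast was greatest with the 1505 peaks found in all 3 other lists, whose median fold was 11.2 (interval 10.9 to 11.4) and median score 358. Against those the probability was 0.145 for the score and 0.219 for the fold.

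The share of Smad1-only peaks grew from the top of the Smad1 list to its end, when the list was divided by score into 10 parts of equal size. They made up 22 of the 798 peaks in part 1, the highest-scoring (2.76%, interval 1.74 to 4.14), 96 of 797 in part 3 (12.05%), 211 of 798 in part 6 (26.4%) and 309 of 797 in part 10 (38.8%, interval 35.4 to 42.3). The rise was not strictly even, with 32.3% in part 7 and 30.0% in part 8. Of the 500 peaks with the highest scores, 6 were Smad1-only, and of the top 1000, 32 were. In all, 464 Smad1-only peaks, or 26.0% (interval 23.9 to 28.0), were among the first 50% of the ranks, where 56.9% of the other Smad1 peaks were found.

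**Figure D2:**
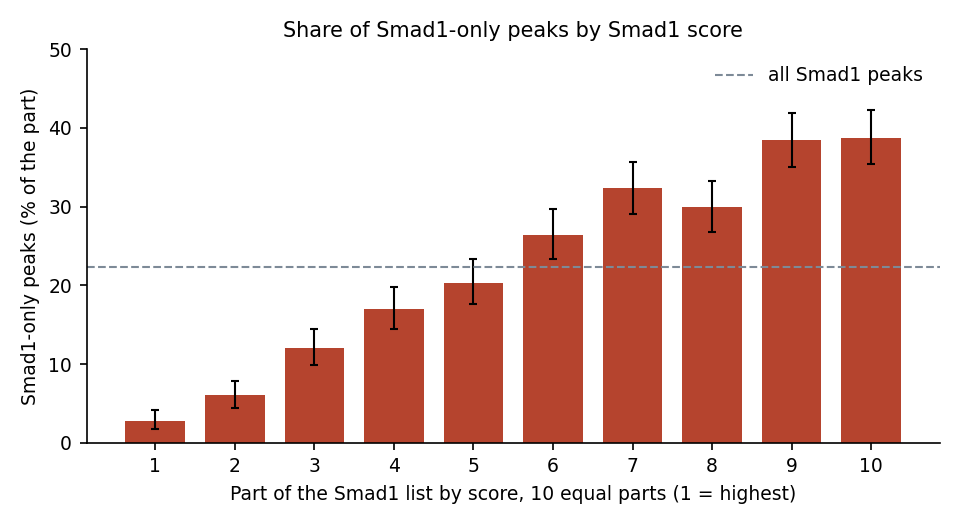
Percentage of Smad1 peaks that are Smad1-only in 10 equal parts of the Smad1 list, ordered by the authors' score from highest (1) to lowest (10); error bars are exact 95% intervals, which cover counting error only, and the dashed line is the 22.4% of the whole list. The share goes from 2.76% in part 1 to 38.8% in part 10.

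Within most parts of the list by score, the widths of the Smad1-only peaks were close to those of the rest. When the list was divided into 5 equal parts by score, a division made after seeing the data, their median width was 411 bp against 406 bp in part 2, 370 against 372 bp in part 3 and 343 against 341 bp in part 4. In part 1, with the highest scores, it was 447 bp (interval 411 to 496) against 491 bp (interval 479 to 498), and in part 5 it was 310 against 319 bp. Scores were not matched within part 1. Smad1-only peaks were 22 of the 798 highest-scoring peaks of the list and 48 of the next 798, which together make up that part. The fold turned the other way from the comparison over the full list. It was slightly higher in Smad1-only peaks in part 2 (10.3 against 10.1), part 3 (8.45 against 8.28), part 4 (7.51 against 7.26) and part 5 (6.83 against 6.71), and lower in part 1 alone (13.8 against 14.3). The intervals of the medians were separate in part 4 (7.46 to 7.58 against 7.21 to 7.36) and in part 5 (6.74 to 6.88 against 6.56 to 6.71). The score and the fold come from the same enrichment (Spearman's rho 0.84 over the Smad1-only peaks), so a division by score leaves little room for the fold to differ.

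The Smad1-only peak with the highest score was an exception in both strength and place. It ranked 3 in the whole Smad1 list, with a score of 1993 and a fold of 46.4, and lay on the unplaced sequence Scaffold32528 from 43 to 361, the only Smad1 peak there and with no peak of another list on that sequence. No other Smad1-only peak came within the first 100 ranks. The next was on chromosome 1L from 47988506 to 47989074, at rank 313 with a score of 661 and a fold of 18.6, and had a whole-embryo p300 peak 724 bp away and β-catenin at 3160 bp.

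The other strong Smad1-only sites differed in how much surrounded them. The site on Scaffold24 from 423191 to 423627 had the second-highest fold of the leading sites, 21.1, with β-catenin 10595 bp away. On chromosome 4S from 99073253 to 99073662 the fold was 18.3, and on chromosome 6L from 65332920 to 65333453 it was 16.2, with 34525 and 137982 bp to the nearest peak of another list. Sites on chromosome 4L from 10777515 to 10778123 (18.5-fold), chromosome 2S from 22130217 to 22130702 (15.4-fold) and Scaffold20 from 3120482 to 3120998 (18.6-fold) lay 16053, 21246 and 9350 bp from one. The remaining pair among the 10 highest scores had partners nearby: explant p300 at 3703 bp and β-catenin at 3897 bp on chromosome 4L from 81524527 to 81524921 (16.7-fold), and β-catenin at 1965 bp on chromosome 2L from 117287124 to 117287774 (14.9-fold). At the other end, the lowest-scoring Smad1-only peak, on chromosome 9_10L from 43449723 to 43450053 (score 144, 6.21-fold), was also the last peak of the Smad1 list, at rank 7976.

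By the rule Smad1-only peaks did not touch a partner site, but 45.9% of them had a partner site within 10 kb. A background for this share, over all Smad1 peaks or over other positions, is not given. Whether the share is high or low was therefore not tested. Distances were counted between peak edges on the same sequence, and 25 Smad1-only peaks had no peak of another list on theirs. For the remaining 1763 the median distance to the nearest peak of any other list was 11701 bp (interval 10542 to 13163, quartiles 3242.5 and 34820). Within 1 kb there was such a peak for 143 (7.998%), within 10 kb for 821 (45.9%, interval 43.6 to 48.3), and beyond 100 kb for 175 (9.79%). The median distance was 19102.5 bp to β-catenin, 26027 bp to explant p300 and 96922 bp to whole-embryo p300. The nearest list was β-catenin for 1072 peaks, explant p300 for 594 and whole-embryo p300 for 97, where 3 ties were counted under the list named first. This order is also that of the lengths of the lists, at 16303, 15146 and 4555 peaks.

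**Figure D3:**
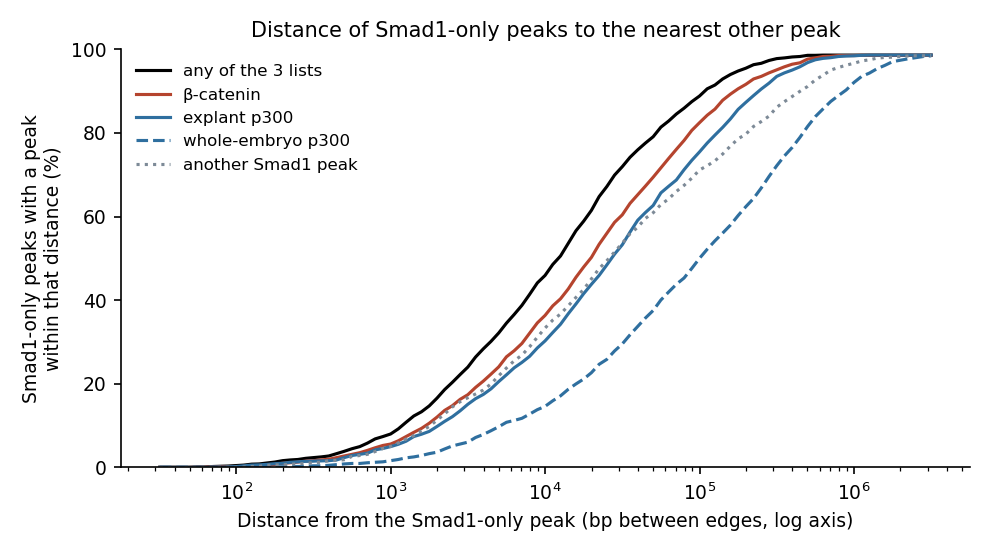
Cumulative percentage of the 1788 Smad1-only peaks that have a peak of each other list, or another Smad1 peak, within a given distance (bp between edges, log axis). Within 10 kb, 45.9% have a peak of any of the 3 lists, 36.4% a β-catenin peak, 30.3% an explant p300 peak and 14.6% a whole-embryo p300 peak; the curves stop short of 100% for peaks alone on their sequence.

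Smad1-only peaks lay farther from p300 sites than Smad1 peaks with β-catenin alone, and farther from β-catenin sites than those with explant p300 alone. These distances come from the same peak positions that the rule used. The classes compared were themselves defined by overlap with the other lists. The differences are therefore not separate from the choice. The peaks with β-catenin alone were not matched to them in strength, with a median score of 201 against 182. More of the peaks with β-catenin alone also had a Smad1 neighbour within 10 kb (43.7% against 33.3%). To a p300 peak of either list, the median distance was 22242 bp (interval 19671 to 24585) from Smad1-only peaks and 13078 bp (interval 11304 to 15659) from Smad1 peaks with β-catenin alone. A p300 peak within 10 kb was found for 33.1% (interval 30.9 to 35.3) and 44.4% (interval 41.5 to 47.3). To a β-catenin peak, the median was 19102.5 bp (interval 16900 to 20872) from Smad1-only peaks and 13633 bp (interval 11325 to 16299) from peaks with explant p300 alone, and the shares within 10 kb were 36.4% (interval 34.1 to 38.6) and 42.9% (interval 39.3 to 46.6). The shift in rank was small: the Smad1-only peak was the farther of a random pair with probabilities of 0.560 and 0.547.

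Distance from partner sites said little about the strength of a Smad1-only peak. The median fold was 7.51 for the 143 peaks closer than 1 kb, 7.55 for the 678 between 1 and 10 kb, 7.63 for the 767 between 10 and 100 kb and 7.63 for the 175 farther away, with overlapping intervals. Median scores were 182, 184, 180 and 174 in the same order. Over the 1763 peaks, which share 1 library and 1 calling, Spearman's rho with that distance was -0.04 for the score, 0.04 for the fold and 0.04 for the width, given as a description.

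Sites far from any partner could still be strong. Of the 5 highest-scoring Smad1-only peaks more than 100 kb from the other lists, the strongest was the chromosome 6L site already described. The others were on chromosome 1S from 157740185 to 157740668 (14.6-fold, 202786 bp away), chromosome 6S from 65714518 to 65715014 (14.3-fold, 113868 bp), chromosome 1L from 156316615 to 156317003 (12.3-fold, 116117 bp) and chromosome 4L from 100517656 to 100518060 (12.0185-fold, 195473 bp). The most remote Smad1-only peak, picked after its values were seen, lay on chromosome 1S from 42464521 to 42464833 (10.0109-fold), 569844 bp from the nearest β-catenin peak and 716966 bp from the next Smad1 peak.

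Fewer Smad1-only peaks than other Smad1 peaks had a Smad1 neighbour, but the class with explant p300 alone was close to them. Another Smad1 peak lay within 10 kb of 596 of them (33.3%, interval 31.1 to 35.6), against 44.6% (interval 43.4 to 45.9) of the other Smad1 peaks and a background of 42.1% over all Smad1 peaks. Among the peaks with explant p300 alone it was 35.2% (interval 31.7 to 38.7), which overlaps the interval of the Smad1-only peaks. The median gap to the next Smad1 peak was 24811 bp (interval 21627 to 28188) against 12740 bp (interval 12063 to 13541). This gap was 14564 bp for Smad1 peaks with β-catenin alone, 20756.5 bp (interval 16587 to 25824, overlapping that of the Smad1-only peaks) for those with explant p300 alone and 8316 bp for those in all 3 other lists. When Smad1 peaks less than 10 kb apart were chained into clusters, Smad1-only peaks were 25.8% of the 4618 peaks with no such neighbour, 19.7% of those in pairs, 17.8% of those in clusters of 3 to 4 and 10.3% (interval 7.75 to 13.4) of those in clusters of 5 or more.

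The difference in Smad1 neighbours did not hold at every score. In part 1 of the 5 parts by score, with the highest scores, 37.1% (interval 25.9 to 49.5) of the 70 Smad1-only peaks and 55.9% (interval 53.4 to 58.4) of the other peaks had a Smad1 neighbour within 10 kb. In part 2 the shares were 30.2% (interval 24.3 to 36.5) and 46.7% (interval 44.0 to 49.4), and in part 3 they were 33.2% (interval 28.5 to 38.3) and 41.7% (interval 38.9 to 44.5). In part 4 they were 39.0% and 37.8%, with overlapping intervals and the opposite order, and in part 5 they were 29.5% (interval 26.0 to 33.3) and 35.6% (interval 32.6 to 38.7). A peak and its neighbour can count each other, so the peaks are not independent and these intervals may be too narrow. Scores were also not matched within part 1, as described above for the widths.

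**Figure D4:**
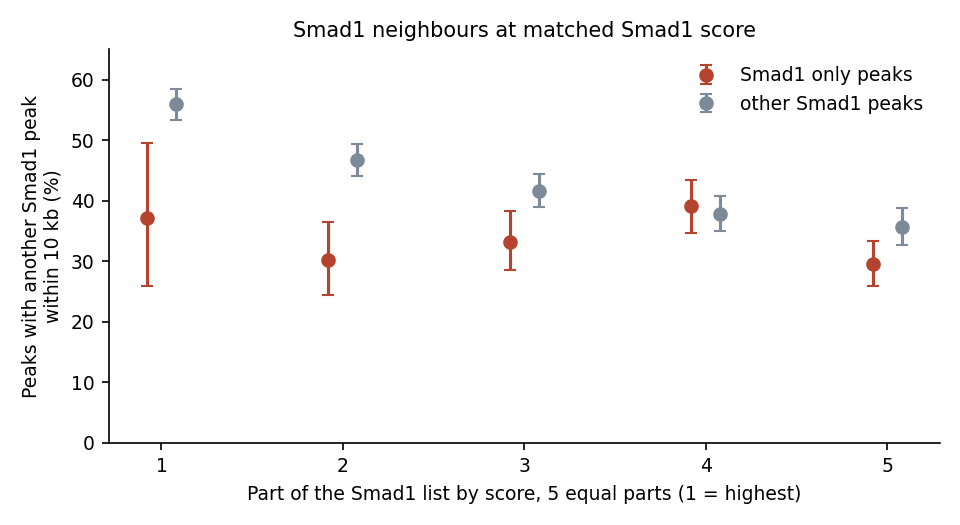
Percentage of Smad1-only (red) and other Smad1 peaks (grey) with another Smad1 peak within 10 kb, in 5 equal parts of the Smad1 list by score from highest (1) to lowest (5); error bars are exact 95% intervals for counting error. The intervals are separate in parts 1 to 3 (37.1% against 55.9% in part 1) and overlap in parts 4 and 5. Neighbouring peaks can count each other, so the intervals may be too narrow.

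Smad1-only peaks had each other as nearest Smad1 neighbours more often than the other Smad1 peaks had them, although long runs were few. The nearest Smad1 peak was itself Smad1-only for 28.8% (interval 26.7 to 31.0) of the Smad1-only peaks and for 17.8% (interval 16.9 to 18.8) of the others. Over all Smad1 peaks this share was 20.3%, beside the 22.4% that Smad1-only peaks made up of the list. The nearest Smad1 peak was Smad1-only for 21.4% of the peaks with β-catenin alone and 15.5% of those with explant p300 alone. These shares were not matched for score. Peaks can also be nearest to each other and so count each other, and the intervals may be too narrow. Of the 596 with a Smad1 neighbour within 10 kb, that neighbour was Smad1-only for 185 (31.0%) and shared with another list for 411. The near neighbour was Smad1-only for 386 of the 2762 other Smad1 peaks that had one (14.0%) and for 571 of 3358 over all Smad1 peaks. Chaining the Smad1-only peaks at 10 kb gave 1557 single peaks, 102 pairs and 9 runs of 3, the longest. The run with the highest summed score, on chromosome 4L from 10777515 to 10780752, held the 18.5-fold site named above and peaks of 8.21-fold and 6.29-fold, and the nearest peak of another list, an explant p300 peak, was 13424 bp away. A run on chromosome 4S from 99199381 to 99215696 had folds of 12.9, 4.59 and 8.01, and its last peak was 213 bp from β-catenin. The third, on chromosome 6L from 19126527 to 19133385, had folds of 8.58, 9.34 and 7.73 and lay 7198 bp from explant p300.

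Smad1-only peaks were spread over the genome much as the other Smad1 peaks were. The genome of this frog arose from a hybrid of related species, and each chromosome comes as a longer (L) and a shorter (S) homeolog. Of the 1702 Smad1-only peaks on named chromosomes, 1018 were on L chromosomes (59.8%, interval 57.4 to 62.2), where the background over all Smad1 peaks was 59.6%. They made up 22.6% of the Smad1 peaks on L and 22.4% of those on S chromosomes, and their median fold was 7.55 and 7.63. Over the 18 chromosomes the share ran from 17.3% on 3S (57 of 329, interval 13.4 to 21.9) to 26.8% on 6S (87 of 325, interval 22.0 to 31.9). The interval left out the 22.4% of the list on 3S alone. The order of L and S differed between pairs, with 24.2% on 1L and 20.0% on 1S but 20.7% on 5L and 24.9% on 5S, and within each pair the intervals overlapped. The median fold of the Smad1-only peaks lay between 7.32 on 9_10L and 8.10 on 7S, below that of the other Smad1 peaks on each of the 18 chromosomes.

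**Figure D5:**
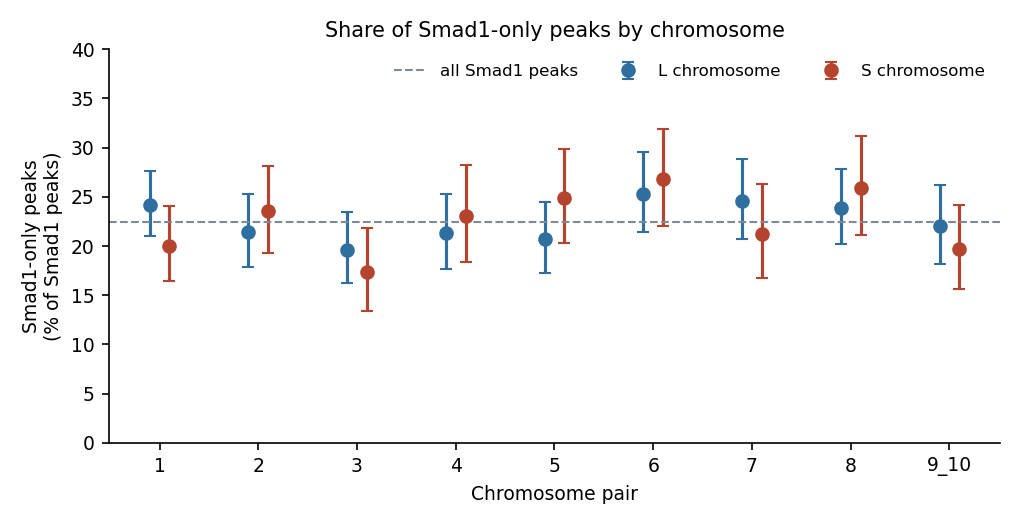
Smad1-only peaks as a percentage of the Smad1 peaks on each L (blue) and S (red) chromosome; error bars are exact 95% intervals for counting error, and the dashed line is the 22.4% of the whole list. Shares run from 17.3% on 3S to 26.8% on 6S, and L and S intervals overlap in each pair.

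Along the chromosomes, from the first base to the last peak of any list, the share of Smad1-only peaks was between 21.7% and 25.8% in parts 1 to 8 of 10 equal parts. It was 17.8% (149 of 835, interval 15.3 to 20.6) in part 9 and 20.2% (interval 17.2 to 23.4) in part 10. The highest share, 25.8% (interval 22.4 to 29.5), was in part 5.

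On unplaced sequences there were 86 Smad1-only peaks, or 4.81% (interval 3.86 to 5.91), where the background over all Smad1 peaks was 5.2%. They lay on 56 sequences. Of these peaks, 23 (26.7%) began within the first 500 bp of their sequence, as did 77 of the 329 other Smad1 peaks on unplaced sequences (23.4%), and no Smad1-only peak on a named chromosome did. The 23 had a median fold of 10.4, against 7.42 for the 63 others on unplaced sequences and 7.58 on named chromosomes. The fold of the 77 other Smad1 peaks that began there is not given, so this value is not shown to be particular to Smad1-only peaks. Any Smad1 peak on a sequence without a peak of another list is Smad1-only by the rule. All 25 such peaks were also the only Smad1 peak on their sequence. Their median fold was 9.56 (interval 8.29 to 11.4) and their median score 261, above the 182 of the whole class. The strongest, on Scaffold32528, is the site that ranked 3 in the Smad1 list. What lies beyond the ends of an unplaced sequence was not seen, so the distances from these peaks are incomplete. The share on unplaced sequences had no constant order over the 5 parts by score. From part 1 to part 5 it was 10%, 7.33%, 3.22%, 3.62% and 5.19% of the Smad1-only peaks. Among the other Smad1 peaks it was 5.31%, 5.43%, 6.30%, 4.83% and 4.49%. Part 1 held only 7 of the Smad1-only peaks on unplaced sequences.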

How the data were processed

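The data were 4 deposited peak lists without headers, in the column layout of MACS2 narrow peaks. The columns used were the score, the fold enrichment (a ratio) and the −log10 p-value, all as the authors deposited them, and the summit offset from the peak start. Per the submitters' processing notes, the tools included MACS2, SAMtools, Picard, Bowtie2, Trimmomatic and FastQC, with no version or role. The genome build is not given. Per the names of the deposited peaks, the explant calls pooled both tissues and both treatments, and the Smad1 calls came from a pooled experiment, although the labels give 1 Smad1 library. The titles of the Smad1 and explant lists name IDR (irreproducible discovery rate). The deposited Smad1 score equals the −log10 p-value times 10 (tolerance 1), and the list ends at a −log10 p of 14.4.

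Groups were taken from the sample titles. An interval repeated for several summits in the whole-embryo p300 list (172 lines) was kept once. An overlap needed 1 shared base. Shares have exact (Clopper-Pearson) 95% intervals and medians have binomial order-statistic intervals. Read depth is unknown, and no test was made, since each list is 1 call set. Overlaps and distances were tested on simulated lists and against bedtools 2.31.1. Tables were made with Python 3.11.15, pandas 2.3.3 and SciPy 1.17.1. The class of peaks and the comparisons were chosen with earlier results of these data known. Named peaks follow a fixed rule: the 10 highest scores, the 5 highest on named chromosomes, the 3 nearest to another list, the 3 other Smad1 peaks sharing the fewest bases, the 5 highest over 100 kb away, the 3 longest runs (9 runs were equally long, and the summed score, added later, chose among them) and the lowest score. A RefSeq gene table of assembly Xenopus_laevis_v10.1 ran past the last peak by over 1 Mb on all 18 chromosomes and was not used for positions, so no gene was named. Alternatives were other overlap rules, parts of the lists and named chromosomes only.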

Additional observations from a re-analysis of the deposited data

How the results depend on the processing

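No paired analysis was possible because each group has 1 library and the lists are single call sets. Of 66 alternative values, 47 stayed within the interval of the main value (for the number of peaks, within 1.5 times) and 19 did not. The number of Smad1-only peaks, 1788, became 3220 with the higher-scoring 50% of the other lists and 5882 with whole-embryo p300 alone, a setting chosen after seeing the data. It became 464 of 3988 in the higher-scoring 50% of the Smad1 list and 881 of 4014 among peaks of middle width. Both settings hold fewer Smad1 peaks by construction. The lower share of Smad1-only peaks at high scores, given above, also enters the 464. In those 4 settings the median fold was 7.70, 7.96, 9.96 and 7.72. The share on unplaced sequences was 6.03% in the higher-scoring 50% of the Smad1 list. The share with another list's peak within 10 kb was 49.8% when overlap meant summits within 200 bp, 41.2% when peaks within 1000 bp counted as overlapping, 37.9% with the higher-scoring 50% of the other lists and 19.0% with whole-embryo p300 alone. What was counted changed between these settings, so they are not the same measure as the main share. In the summit setting, peaks that overlapped another list could stay and counted as within 10 kb. In the 1000 bp setting, every peak with another list's peak that near was taken out. With the higher-scoring 50% and with whole-embryo p300 alone, distances ran only to the peaks kept. The 5882 peaks could overlap β-catenin or explant p300. Any further cause was not tested. In 9 of 9 settings Smad1-only peaks had a lower median fold and a smaller median width than the other Smad1 peaks. They also had fewer Smad1 neighbours within 10 kb in each setting. No setting matched the peaks by score. Within the 5 parts by score, the order for neighbours was opposite in part 4 (39.0% against 37.8%). That for the fold was opposite in parts 2 to 5. The settings reuse the same Smad1 list and overlapping sets of peaks, so they are not independent of each other. Width is also tied to the positions that the rule used. The unknown read depth limits each statement that a partner is missing from a site.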

Other observations

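The β-catenin and explant p300 peaks near Smad1-only peaks stood above the middle of their lists by score, and those of them without a Smad1 peak below it. The same percentiles were not worked out near the other Smad1 peaks, or for all peaks without Smad1. The values are therefore not shown to be particular to the surroundings of Smad1-only peaks. Within 10 kb of a Smad1-only peak lay 967 β-catenin peaks, 811 explant p300 peaks and 329 whole-embryo p300 peaks, and their median scores stood at the 54.1 (interval 51.1 to 56.6), 54.9 (interval 50.9 to 57.8) and 47.4 percentile (interval 43.9 to 58.3) of their own lists. Those that overlapped no Smad1 peak at all stood lower, at the 44.1 percentile for 478 β-catenin peaks (interval 40.4 to 49.1), 42.0 for 387 explant p300 peaks (interval 36.5 to 45.7) and 43.9 for 105 whole-embryo p300 peaks (interval 27.3 to 55.4, which holds the middle of the list).

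Exact ties were common in the Smad1 list. A fold and p-value both identical to those of at least 1 other Smad1 peak were found for 1682 Smad1-only peaks (94.1%) and for 5211 of the other Smad1 peaks (84.2%). These shares were not matched for score, where the medians were 182 and 239. The higher share is therefore not shown to be particular to Smad1-only peaks. The widest Smad1-only peak, picked after its values were seen, spanned 1200 bp on chromosome 4S from 912146 to 913345, with a fold of 13.7.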
